A study of Mus musculus with 18 samples.

Results

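Matrix metalloproteinases (MMPs) and their inhibitors, the tissue inhibitors of metalloproteinases (TIMPs), were followed in cultured mouse tail tendon fibroblasts (TFs). The rows named *Mmp2*, *Mmp3*, *Mmp9*, *Mmp10*, *Mmp11*, *Mmp13*, *Mmp14*, *Timp1*, *Timp2* and *Timp3* were taken, which are 10 of the 55491 rows of the count table. MMPs are zinc-dependent proteases that cut collagen and other parts of the extracellular matrix (ECM), most of them secreted as inactive proenzymes. TIMPs are secreted inhibitors that bind the active site of MMPs, and TIMP2 also takes part in the activation of proMMP2 by the membrane-bound MMP14. In tendon, MMP13 acts as the interstitial collagenase, MMP2 and MMP9 are gelatinases that cut denatured collagen, and MMP3 and MMP10 are stromelysins with broad substrates that can activate other proMMPs.

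The data were 18 poly-A RNA-seq libraries, 3 in each of 6 groups, taken after 4 days in culture. Ctrl TFs, labelled wild-type and described as Cre-negative, and cKO TFs, labelled *Hif1a* knockout and taken from *Hif1a* flox/flox; ScxCre mice, were each kept in 20% O2 or 1% O2. Control mice of this cross could carry floxed *Hif1a* without Cre. The other 6 libraries were Ctrl TFs given Cre gesicles, vesicles that deliver the recombinase, in 20% O2 or 1% O2. The mice were 4 to 6 months old, of both sexes, on a mixed C57BL6J/129S1 background, and ScxCre is a constitutive Cre driven by the tendon gene *Scx* rather than by a gene of these enzymes. In all groups, TFs crawled out of tail tendons in collagen gels and were then grown on plastic in medium with serum. By the methods of the study, the plastic was coated with collagen I. By their sex-linked counts, the Ctrl groups and the gesicle groups each held 1 male and 2 female mice and the cKO groups 2 male and 1 female.

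Library totals ranged from 6857558 counts, in cKO 1% O2 replicate 1, to 51806453. Values are counts per 1000000 counts of a library (CPM), normalized by edgeR's TMM method, and 3 counts, taken as the floor, corresponded to between 0.0579 and 0.438 CPM. *Hif1a* counts were not reduced in libraries labelled cKO, and whole-gene counts cannot show the loss of a floxed exon. By edgeR's quasi-likelihood (QL) test, the log2 fold change against Ctrl was 0.11 in 20% O2 (SE 0.16, edgeR QL adjusted p = 0.757) and 0.075 in 1% O2 (SE 0.16, edgeR QL adjusted p = 0.819). Cre transcripts, at most 5 counts, were counted in 5 of 6 cKO libraries and 0 of 12 others. *Slc16a3*, a lactate transporter gene induced by low O2, was higher in 1% O2 by a log2 fold change of 6.44 in Ctrl, 5.26 in cKO and 6.10 in gesicle-treated TFs. The 9 tendon fibroblast markers were present in every library. The myeloid markers were mixed, with *Ptprc*, *Adgre1*, *Itgam* and *S100a8* at 0 counts in 11, 17, 12 and 5 libraries. *Lyz2* (8.57 to 22.2 CPM), *Cd14* (6.27 to 16 CPM), *Cd68* (0.331 to 2.66 CPM) and *Csf1r* (0.425 to 2.36 CPM) were counted in every library. Directions between genotypes therefore refer to libraries labelled cKO and Ctrl.

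The 10 genes spanned a wide range of transcript levels. Per kilobase of exon, the inhibitor *Timp2* was the most abundant, with a median of 1760 CPM per kb over the 18 libraries (1310 to 2160), above *Timp3* in 18 of 18 libraries. *Timp3*, whose protein binds to the ECM, had a median of 275 CPM per kb and *Timp1*, a soluble inhibitor often induced with growth factors, 243 CPM per kb. *Timp3* exceeded *Timp1* in only 10 of 18 libraries, so these neighbours were not separated. Among the proteases, *Mmp14*, the membrane-anchored collagenase and activator of proMMP2, led with 119 CPM per kb and lay below *Timp1* in 17 of 18 libraries. The gelatinase *Mmp2* followed with 58.2 and the furin-activated stromelysin-3 gene *Mmp11* with 24.7 CPM per kb.

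The remaining proteases were lower. *Mmp3* had a median of 6.36 CPM per kb, *Mmp13* of 1.62 and *Mmp10* of 0.952 CPM per kb, and *Mmp13* exceeded *Mmp10* in 14 of 18 libraries. *Mmp9*, the gelatinase typical of myeloid cells, had a median of 0.0948 CPM per kb. Its counts ranged from 0 to 51, with 0 counts in cKO 1% O2 replicate 1 and in gesicle 1% O2 replicate 1, which allow up to 0.438 and 0.085 CPM. At this depth, no difference in *Mmp9* between groups was called.

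**Figure D1:**
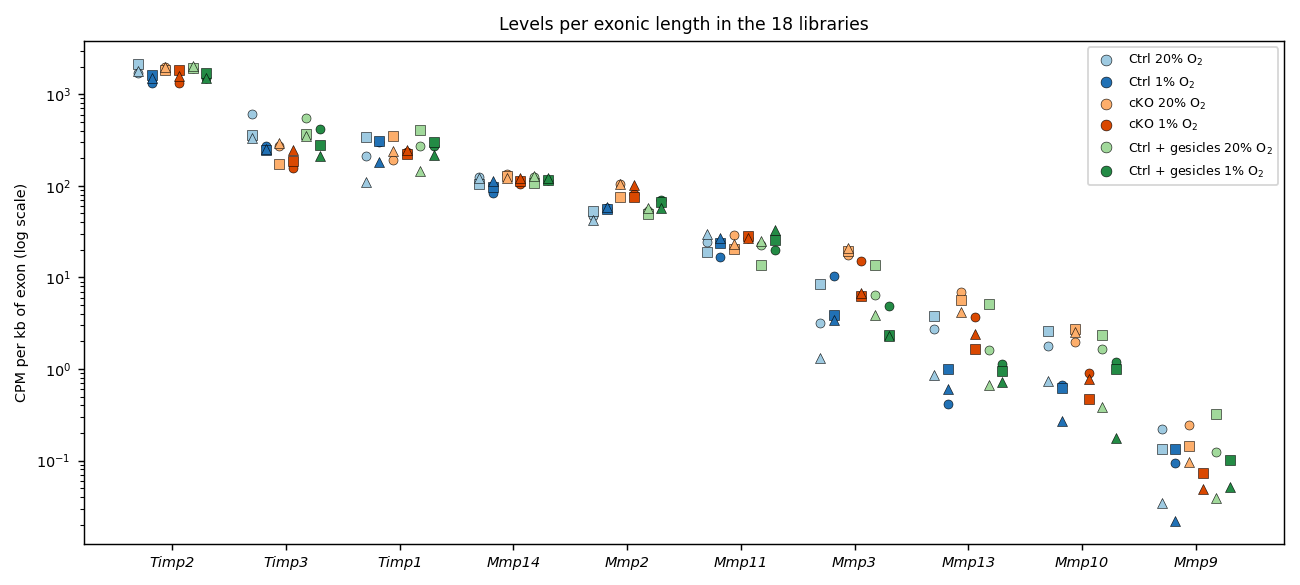
Each point is the level of a gene in a library, as CPM per kb of exon on a log axis, coloured by group, with circles, squares and triangles for replicates 1, 2 and 3. *Timp2* lies highest at 1310 to 2160 CPM per kb and *Mmp9* lowest, and the 2 libraries with 0 counts of *Mmp9* cannot be drawn on this axis.

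*Mmp3*, *Mmp10* and *Mmp13* lie close together on chromosome 9 of GRCm38, all on the forward strand, with *Mmp13* from 7272514 to 7283331, *Mmp3* from 7445822 to 7455975 and *Mmp10* from 7502352 to 7510240. The other members lie apart, *Mmp2* on chromosome 8 from 92827291 to 92853420, *Mmp9* on chromosome 2 from 164940780 to 164955850, *Mmp14* on chromosome 14 from 54431612 to 54445364 and *Timp2* on chromosome 11 from 118301069 to 118355740. *Mmp11* (75923222 to 75936496) and *Timp3* (86300372 to 86349506) are both on chromosome 10, and *Timp1* is on chromosome X from 20870166 to 20874735. *Timp3* and *Timp1* sit inside the synapsin genes *Syn3* and *Syn1* on the opposite strand. *Timp3* shares 1733 exonic bases with *Syn3*, which had 14 to 485 counts per library against at least 8985 for *Timp3*, and without strand the reads of these genes cannot be told apart. *Mmp3* and *Mmp10* share 3.76% and 3.94% of their 75-base stretches with each other, and *Mmp11* shares 2.79% with the overlapping gene *Chchd10*, so a small part of their counts is uncertain.

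RefSeq (GRCm38.p6) held promoter windows, from 250 bases before to 50 after the start site, for 8 of the 10 genes. The windows were searched on both strands for TGAGTCA, the site of the AP-1 factors (dimers of FOS and JUN proteins), for the TATA hexamer TATAAA, and for ACGTG and GCGTG, the cores of the hypoxia response element that HIF-1 binds. TGAGTCA and TATAAA were each found in *Mmp3*, *Mmp10* and *Mmp13*, and neither was found in the other 5 windows. Of 32851 RefSeq promoters, 5.2% held TGAGTCA, 13.6% TATAAA and 0.941% both. The 120 bases before each start site are shown for these 3 neighbouring genes because they alone among the 8 held both motifs. Capitals mark the AP-1 match, which in *Mmp13* is on the other strand and so reads as its reverse complement, and the TATAAA match. All are on the forward strand, at chr9:7445702-7445821 for *Mmp3*, chr9:7502222-7502341 for *Mmp10* and chr9:7272394-7272513 for *Mmp13*.
Mmp3: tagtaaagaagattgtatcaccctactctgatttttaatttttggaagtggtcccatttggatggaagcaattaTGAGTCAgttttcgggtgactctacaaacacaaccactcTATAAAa
Mmp10: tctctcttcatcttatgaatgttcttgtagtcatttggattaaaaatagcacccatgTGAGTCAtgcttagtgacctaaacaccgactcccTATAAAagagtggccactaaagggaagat
Mmp13: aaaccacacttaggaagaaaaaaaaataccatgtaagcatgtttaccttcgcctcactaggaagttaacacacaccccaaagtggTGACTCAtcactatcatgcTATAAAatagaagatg

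Counted back from the start site, the AP-1 match began at base -46 in *Mmp3*, -63 in *Mmp10* and -35 in *Mmp13*. The TATA hexamer began at -7, -29 and -16. The hypoxia response core ACGTG was found at -48 in *Mmp14* and -82 in *Timp1*, and GCGTG at -206 in *Timp1*, -113 in *Timp2* and -69 in *Timp3*. These short cores are common, since 19.6% and 32.4% of all promoters held them, and a match is a description of the sequence and not a shown site of binding.

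**Figure D2:**
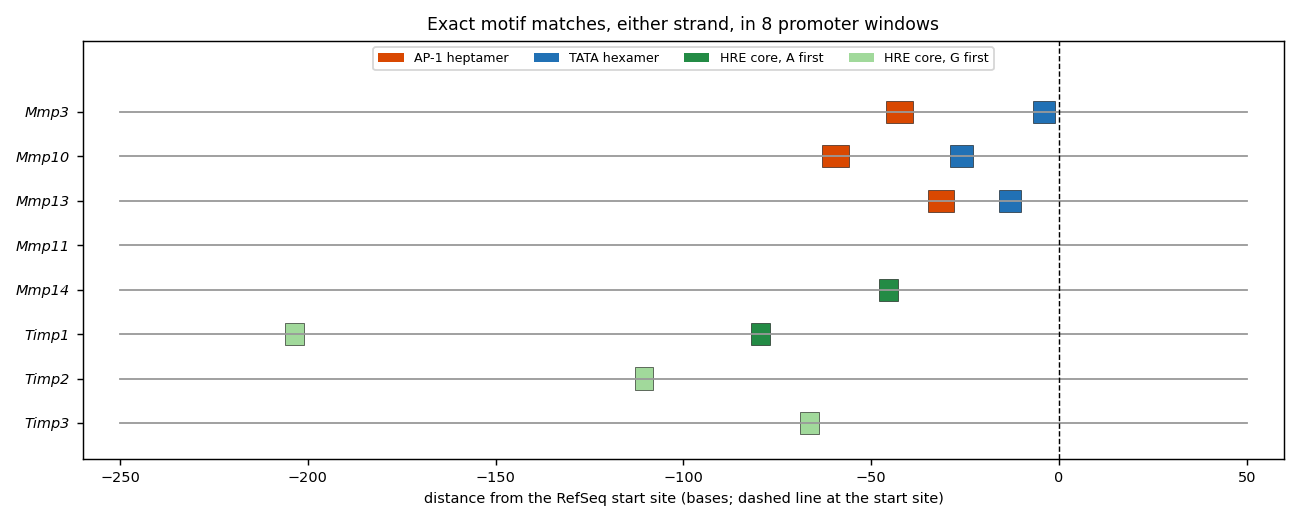
Exact motif matches on either strand in the promoter windows of 8 genes, by distance in bases from the RefSeq start site. *Mmp3*, *Mmp10* and *Mmp13* hold an AP-1 heptamer before a TATA hexamer, while hypoxia response cores lie in *Mmp14* and the 3 Timp genes.

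To ask whether these genes respond to O2, 1% O2 was compared with 20% O2 within each kind of TFs. *Mmp9*, *Mmp10*, *Mmp13*, *Mmp14*, *Timp2* and *Timp3* had lower mean levels in 1% O2 in every arm. The spread between replicates was wide, and none passed the main test, which held no term for the replicate number. A gene was called at 1.5-fold or more with a Benjamini-Hochberg adjusted p below 0.05 in edgeR's QL test. In Ctrl TFs, 0 of the 10 genes were called, where 1.88% of all genes tested were. Likewise 0 were called in cKO TFs, against 2.10% of all genes, and 0 in gesicle-treated TFs, against 2.41%. The unadjusted p was under 0.05 for 3 genes in Ctrl (*Mmp10*, *Mmp13* and *Timp3*, against 16.1% of all genes), 2 in cKO (*Mmp10* and *Mmp13*, against 19.8%) and 3 in gesicle-treated TFs (*Mmp3*, *Mmp13* and *Timp2*, against 17.3%). DESeq2 called 2, 1 and 0 of the 10 genes, and 692 of 28539, 888 of 28539 and 731 of 29738 genes in all. These totals include genes that DESeq2's own filter can leave without an adjusted p. The median log2 fold change of the 10 genes was -0.30 in Ctrl, -0.30 in cKO and -0.41 in gesicle-treated TFs, beside 0.00020, -0.029 and -0.020 over all genes tested.

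**Figure D3:**
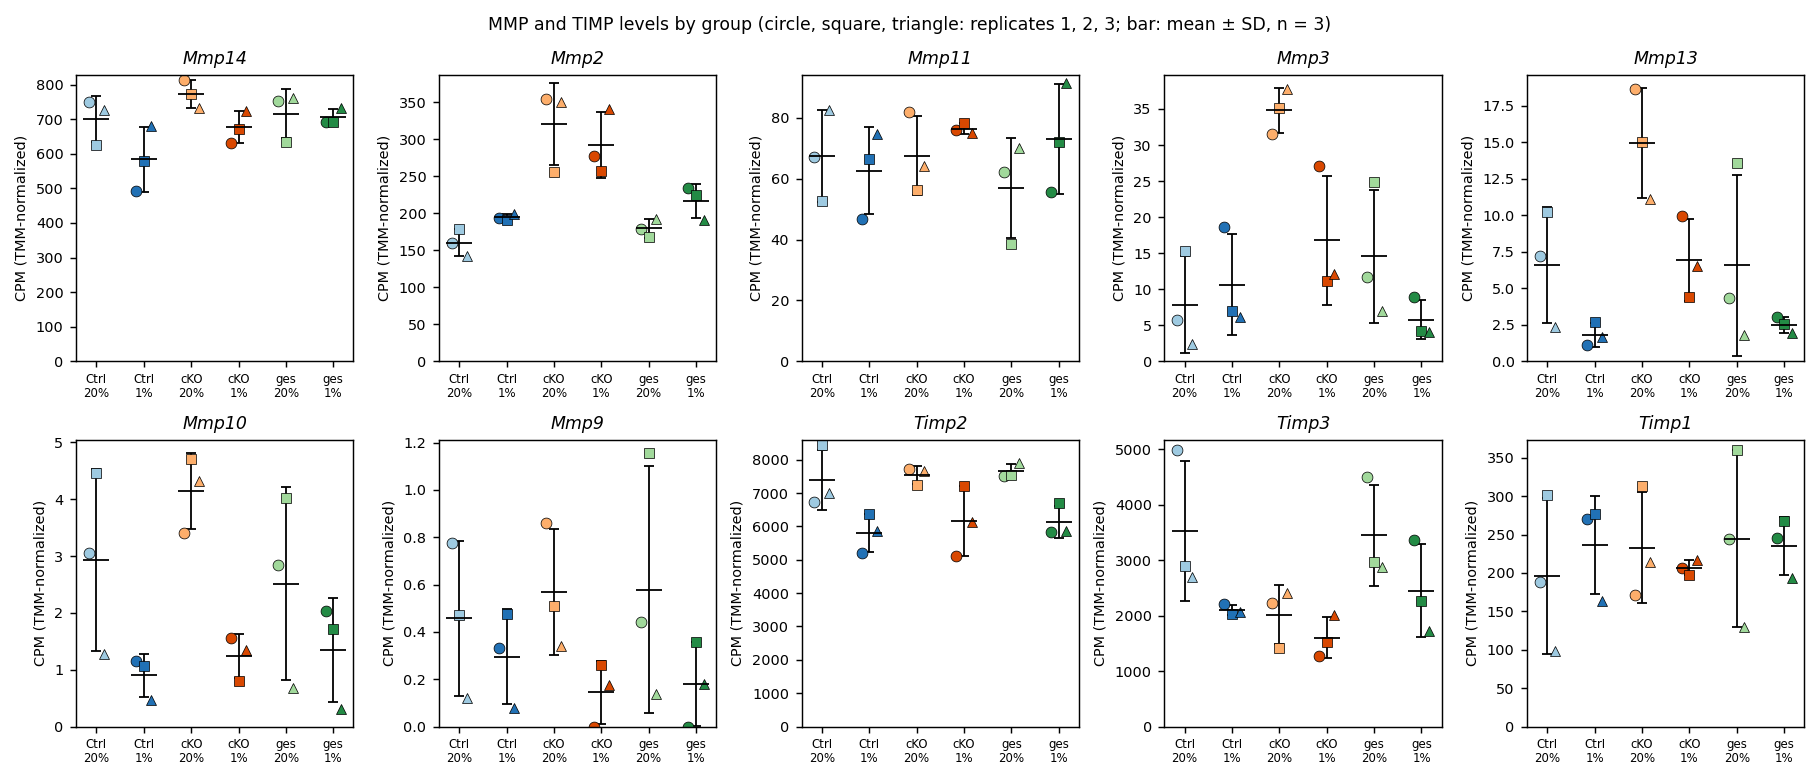
TMM-normalized CPM of each gene in each library, on linear axes from 0, with points for libraries (circle, square and triangle for replicates 1, 2 and 3) and bars for mean ± SD (n = 3), and with ges for gesicle-treated Ctrl TFs. The mean of *Mmp10* is lower in 1% O2 within each arm, and *Mmp2* is higher in both cKO groups than in the 4 others.

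The stromelysin *Mmp10* was lower in 1% O2 in every pair of libraries with the same replicate number, as was the inhibitor *Timp2*. Such pairs were not shown to be matched in every arm, and untreated and gesicle-treated pairs may share mice. In Ctrl TFs *Mmp10* was at 3.06, 4.46 and 1.28 CPM in replicates 1 to 3 in 20% O2 and at 1.16, 1.07 and 0.467 CPM in 1% O2. In cKO TFs it was at 3.41, 4.71 and 4.33 CPM in 20% O2 and at 1.57, 0.806 and 1.35 CPM in 1% O2, the first of these on 11 counts. In both genotypes every library in 1% O2 lay below every library in 20% O2. The log2 fold change was -1.70 in Ctrl (SE 0.46, edgeR QL adjusted p = 0.0886) and -1.79 in cKO (SE 0.47, edgeR QL adjusted p = 0.0715), neither called. With the replicate number as a block, the edgeR QL adjusted p was 0.111 for Ctrl and 0.101 for cKO. With a block for each number within each genotype, it was 0.0411 and 0.0289, and both were called. DESeq2 called both as well, with adjusted p = 0.00698 in Ctrl and 0.00487 in cKO, as did edgeR without Ctrl 20% O2 replicate 3, with adjusted p = 0.0451 and 0.0489.

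In gesicle-treated TFs, *Mmp10* was at 2.85, 4.03 and 0.671 CPM in 20% O2 and 2.03, 1.72 and 0.301 CPM in 1% O2. These groups overlapped, with replicate 3 low at both levels, and the log2 fold change was -0.89 (SE 0.64, edgeR QL adjusted p = 0.509).

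The collagenase *Mmp13* showed a difference of similar size that was less regular. Ctrl TFs had 7.24, 10.2 and 2.31 CPM in 20% O2 and 1.10, 2.68 and 1.63 CPM in 1% O2, and cKO TFs had 18.7, 15.0 and 11.1 CPM in 20% O2 and 9.96, 4.38 and 6.53 CPM in 1% O2. The Ctrl groups overlapped, through Ctrl 20% O2 replicate 3, and the cKO groups did not. The log2 fold change was -1.86 in Ctrl (SE 0.50, edgeR QL adjusted p = 0.0843) and -1.13 in cKO (SE 0.48, edgeR QL adjusted p = 0.225), neither called. DESeq2 called *Mmp13* in Ctrl TFs with adjusted p = 0.00307, and edgeR did so without Ctrl 20% O2 replicate 3. Gesicle-treated TFs had 4.31, 13.6 and 1.80 CPM in 20% O2 and 3.02, 2.56 and 1.93 CPM in 1% O2, for which the log2 fold change was -1.39 (SE 0.61, edgeR QL adjusted p = 0.257). Without gesicle 20% O2 replicate 2, the library at 13.6 CPM, it was -0.29.

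*Mmp3*, the other stromelysin of the cluster, did not share this pattern in Ctrl TFs. It was at 5.74, 15.3 and 2.37 CPM in 20% O2 and 18.7, 7.0 and 6.20 CPM in 1% O2, and replicates 1 and 3 were higher in 1% O2 while replicate 2 was lower. In cKO TFs it was at 31.6, 35.1 and 37.8 CPM in 20% O2 and 27.0, 11.2 and 12.1 CPM in 1% O2, without overlap (log2 fold change -1.08, SE 0.59, edgeR QL adjusted p = 0.331). In gesicle-treated TFs it was at 11.7, 24.9 and 7.02 CPM in 20% O2 and 8.85, 4.24 and 4.12 CPM in 1% O2 (log2 fold change -1.34, SE 0.62, edgeR QL adjusted p = 0.280). The cKO and gesicle arms thus had lower values in 1% O2 in every replicate number, but no comparison was called.

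The inhibitors *Timp2* and *Timp3* also had lower means in 1% O2, by smaller folds, and were not called. *Timp2* was at 6738, 8430 and 7011 CPM in Ctrl 20% O2 and 5211, 6359 and 5855 CPM in Ctrl 1% O2, at 7717, 7239 and 7676 against 5123, 7223 and 6147 CPM in cKO, and at 7505, 7556 and 7904 against 5844, 6695 and 5871 CPM in gesicle-treated TFs. In each arm the groups did not overlap, although in cKO TFs the nearest libraries differed by little. The log2 fold changes were -0.34 (SE 0.16) in Ctrl, -0.28 (SE 0.16) in cKO and -0.32 (SE 0.14) in gesicle-treated TFs, with edgeR QL adjusted p = 0.311, 0.337 and 0.238. *Timp3* was at 4979, 2900 and 2688 CPM in Ctrl 20% O2 and 2210, 2024 and 2064 CPM in Ctrl 1% O2, again without overlap (log2 fold change -0.74, SE 0.26, edgeR QL adjusted p = 0.188). Its log2 fold change was -0.32 in cKO (SE 0.26, edgeR QL adjusted p = 0.519) and -0.49 in gesicle-treated TFs (SE 0.29, edgeR QL adjusted p = 0.402), with overlapping groups. *Timp1* averaged 196 ± 102 CPM in Ctrl 20% O2 and 237 ± 63.5 CPM in Ctrl 1% O2 (SD, n = 3), a difference smaller than its spread within groups.

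*Mmp2* was the only member with all Ctrl 1% O2 libraries above all Ctrl 20% O2 libraries, at 194, 191 and 199 CPM against 160, 178 and 142 CPM (log2 fold change 0.29, SE 0.15, edgeR QL adjusted p = 0.386). Its log2 fold change was 0.27 in gesicle-treated TFs (SE 0.14, edgeR QL adjusted p = 0.331), while in cKO TFs the means were 320.2 ± 55.5 and 292 ± 44.3 CPM (SD, n = 3). *Mmp14* averaged 701 ± 65.3 and 584 ± 94.4 CPM in Ctrl, 773 ± 40.2 and 677 ± 46.1 CPM in cKO and 716 ± 70.7 and 705 ± 23.1 CPM in gesicle-treated TFs, in 20% and 1% O2. *Mmp11* lay between 56.9 and 76.4 CPM in every group mean. *Mmp9*, on few counts, was at 0.457 ± 0.328 and 0.295 ± 0.202 CPM in Ctrl, 0.570 ± 0.266 and 0.145 ± 0.132 CPM in cKO and 0.578 ± 0.522 and 0.179 ± 0.178 CPM in gesicle-treated TFs. Its log2 fold change was -1.59 in cKO (SE 0.81, edgeR QL adjusted p = 0.299) and -1.69 in gesicle-treated TFs (SE 0.96, edgeR QL adjusted p = 0.384). The sum of the 4 osteoclast markers, almost all from *Ctsk*, moved with O2 in Ctrl as well, at 277 to 298 CPM in 20% O2 and 184 to 233 CPM in 1% O2, with *Dcstamp* at 0 counts in all 18 libraries, and its part in these differences was not tested.

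Counted over genes, the 20% O2 and 1% O2 libraries did not overlap for 4 of the 10 genes in Ctrl (*Mmp2* higher, and *Mmp10*, *Timp2* and *Timp3* lower), against 30.0% of all genes tested. In cKO TFs they did not overlap for 6 by CPM, all lower in 1% O2 (*Mmp3*, *Mmp9*, *Mmp10*, *Mmp13*, *Mmp14* and *Timp2*), against 10.2% of all genes in that direction by the same rule. Without *Mmp9* there were 5. Its 0 counts in cKO 1% O2 replicate 1 allow up to 0.438 CPM, above the 0.340 CPM of cKO 20% O2 replicate 3. In gesicle-treated TFs the groups did not overlap for 1, *Timp2*, lower in 1% O2, against 11% of all genes in that direction. The shares for cKO and gesicle-treated TFs cover only genes lower in 1% O2. That for Ctrl covers both directions, so the shares are not alike. A share in a single direction is smaller than that over both, which is not given here for cKO and gesicle-treated TFs. The 6 genes in cKO and the 4 in Ctrl can therefore not be compared through these shares.

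**Figure D4:**
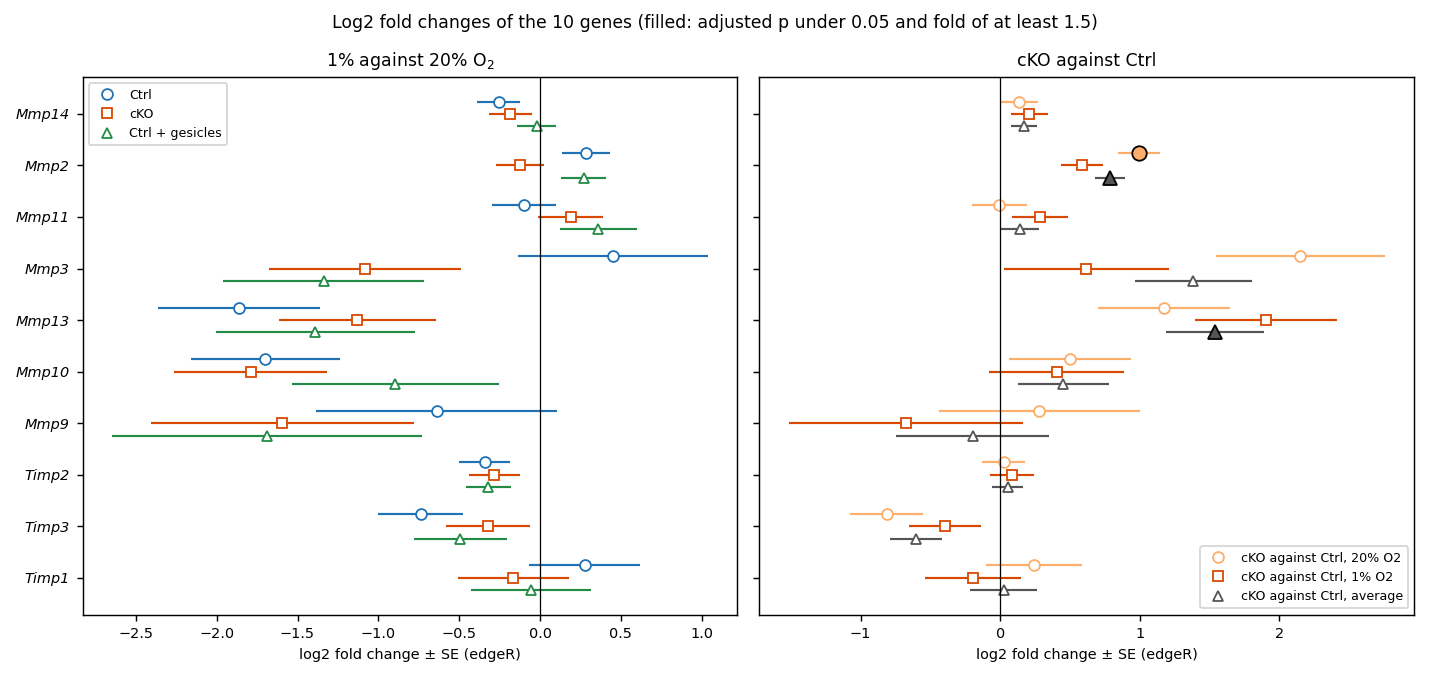
Log2 fold changes with SE from edgeR, for 1% against 20% O2 in 3 arms (left) and for cKO against Ctrl in 20% O2, in 1% O2 and on average (right), with filled symbols for called genes. Only *Mmp2*, in 20% O2 and on average, and *Mmp13*, on average, are filled.

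cKO and Ctrl TFs were compared to ask whether *Hif1a* bears on these genes. The gelatinase *Mmp2* and the collagenase *Mmp13* rose in cKO TFs, and edgeR called no member lower, while DESeq2 and edgeR without a filter called *Timp3* lower on average, with adjusted p = 0.0177 and 0.0196. In 20% O2, 1 of the 10 genes was called, *Mmp2*, which rose, against 0.347% of all genes tested and 0.145% called higher, and 4 had an unadjusted p under 0.05, against 14.3%. In 1% O2, 0 were called, against 0.0379%, and the unadjusted p was under 0.05 for 2 (*Mmp2* and *Mmp13*), against 16.8%, and DESeq2 called both. Averaged over both O2 levels, 2 genes rose, *Mmp2* and *Mmp13*, against 3.78% of all genes called and 1.10% called higher, and 4 had an unadjusted p under 0.05, against 28.5%. The comparisons at each O2 level and their average rest on the same libraries. The average takes the 20% and 1% O2 libraries as separate, although those with the same number may come from the same mouse. Its p-values may therefore be too small. Groups were separate for 4 genes in 20% O2 (*Mmp2*, *Mmp3* and *Mmp13* higher, *Timp3* lower), against 21.2% of all genes, and for 4 in 1% O2 (*Mmp2*, *Mmp11* and *Mmp13* higher, *Timp3* lower), against 27.3%. The median log2 fold change of the 10 genes was 0.26 in 20% O2 and 0.25 in 1% O2, beside 0.034 and 0.0030 over all genes.

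Of the 10 genes, *Mmp2* had the lowest p between the genotypes. It was at 355, 256 and 350 CPM in replicates 1 to 3 of cKO 20% O2, against 160, 178 and 142 CPM in Ctrl, and at 278, 257 and 342 CPM in cKO 1% O2, against 194, 191 and 199 CPM in Ctrl. Every cKO library was above every Ctrl library, and also above the 6 gesicle-treated libraries, whose highest value was 234 CPM. The log2 fold change was 0.99 in 20% O2 (SE 0.15, edgeR QL adjusted p = 0.0233) and 0.58 in 1% O2 (SE 0.15, edgeR QL adjusted p = 0.198), where DESeq2 called it with adjusted p = 0.0351. On average it was 0.79 (SE 0.11, edgeR QL adjusted p = 0.00435). The call in 20% O2 was lost without Ctrl 20% O2 replicate 1, Ctrl 20% O2 replicate 3 or cKO 20% O2 replicate 3, with adjusted p = 0.153, 0.133 and 0.112. The average call was kept without any single library, but the library of the same number at the other O2 level stayed in the fit.

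*Mmp13* rose on average, by a log2 fold change of 1.54 (SE 0.35, edgeR QL adjusted p = 0.0326). Its means were 14.9 ± 3.79 CPM in cKO and 6.58 ± 3.98 CPM in Ctrl TFs in 20% O2, and 6.95 ± 2.82 and 1.81 ± 0.803 CPM in 1% O2 (SD, n = 3), and at each level all cKO libraries were above all Ctrl libraries. Within a level the difference was not called, with log2 fold changes of 1.17 in 20% O2 (SE 0.48, edgeR QL adjusted p = 0.318) and 1.90 in 1% O2 (SE 0.51, edgeR QL adjusted p = 0.204). The average call was lost when any of Ctrl 20% O2 replicate 1, Ctrl 1% O2 replicate 3, cKO 20% O2 replicates 2 and 3 or cKO 1% O2 replicates 1, 2 and 3 was left out, with adjusted p up to 0.0853 and log2 fold changes from 1.33 to 1.77 over all omissions.

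*Mmp3* had the largest difference in 20% O2, where the cKO libraries (31.6 to 37.8 CPM) all lay above the Ctrl libraries (2.37 to 15.3 CPM). The log2 fold change of 2.15 (SE 0.60, edgeR QL adjusted p = 0.179) was not called, and it was 3.09 without Ctrl 20% O2 replicate 2 and 1.72 without Ctrl 20% O2 replicate 3. Not called either was the average of 1.38 (SE 0.42, edgeR QL adjusted p = 0.0705), which DESeq2 called with adjusted p = 0.0318. In 1% O2 the groups overlapped, at 16.8 ± 8.90 against 10.6 ± 6.98 CPM (SD, n = 3). *Mmp10* had an average log2 fold change of 0.45 (SE 0.33, edgeR QL adjusted p = 0.369). Of the 3 clustered genes, *Mmp13* passed the test on average and the other 2 did not.

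*Timp3* was the only inhibitor whose cKO libraries all lay below the Ctrl libraries at both O2 levels. It was at 2231, 1408 and 2401 CPM in cKO 20% O2 against 4979, 2900 and 2688 CPM in Ctrl, and at 1278, 1515 and 2014 CPM in cKO 1% O2 against 2210, 2024 and 2064 CPM in Ctrl. In 1% O2 the nearest libraries were 2014 and 2024 CPM. The log2 fold change was -0.81 in 20% O2 (SE 0.26, edgeR QL adjusted p = 0.221), -0.39 in 1% O2 (SE 0.26, edgeR QL adjusted p = 0.429) and -0.60 on average (SE 0.18, edgeR QL adjusted p = 0.0705), none called. DESeq2 called the average with adjusted p = 0.0177. *Timp2* averaged 7544 ± 264 CPM in cKO and 7393 ± 908 CPM in Ctrl TFs in 20% O2, and 6165 ± 1049.6 and 5808 ± 575 CPM in 1% O2. *Timp1* was at 233 ± 72.6 and 207 ± 9.64 CPM in cKO TFs in 20% and 1% O2, overlapping the Ctrl libraries at both levels.

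Among the remaining proteases, *Mmp11* averaged 76.4 ± 1.72 CPM in cKO 1% O2 against 62.7 ± 14.3 CPM in Ctrl 1% O2 (log2 fold change 0.28, SE 0.20, edgeR QL adjusted p = 0.457). *Mmp14* had an average log2 fold change of 0.17 (SE 0.094, edgeR QL adjusted p = 0.239). For *Mmp9*, *Timp1* and *Timp2*, the log2 fold change between the genotypes was smaller than its SE at both O2 levels and on average. The sum of the 9 tendon fibroblast markers was 10900 to 13000 CPM in Ctrl and 4370 to 9720 CPM in cKO TFs in 20% O2, and 5870 to 13300 and 5250 to 8600 CPM in 1% O2. The sum of the 8 myeloid markers was 19.3 to 27.8 and 20.5 to 38.5 CPM in 20% O2, and 24.2 to 33.3 and 27.3 to 31.9 CPM in 1% O2. The sum of the 4 keratinocyte markers, almost all from *Krt10*, was 3.44 to 4.16 CPM in Ctrl and 4.49 to 7.59 CPM in cKO TFs in 20% O2, and *Krt14* was at 0 counts in 13 of 18 libraries. In 1% O2 the osteoclast sum was 184 to 233 CPM in Ctrl and 253 to 303 CPM in cKO TFs. The sum of the skeletal muscle markers, almost all from *Acta1*, was 22.0 to 41.8 CPM in Ctrl and 9.32 to 15.0 CPM in cKO TFs in 20% O2, and 23.5 to 29.6 and 16.4 to 19.7 CPM in 1% O2, with the muscle enzyme *Ckm* at 0 counts in all 18 libraries. The part of these markers in the differences was not tested, and fewer cells of a type cannot be told apart from less RNA per cell. With sex as a covariate, *Mmp2* and *Mmp13* were still called on average (edgeR QL adjusted p = 0.00839 and 0.0347).

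Whether the response to O2 differed between genotypes was tested by the interaction. In edgeR it called 0 of the 10 genes, against 0.00% of all genes, with 0 at an unadjusted p under 0.05, against 2.32%. DESeq2 also called 0 of the 10 genes, and 2 of 28539 genes in all. The log2 difference of the O2 response, cKO minus Ctrl, was -0.41 for *Mmp2* (SE 0.21), -1.53 for *Mmp3* (SE 0.83), 0.29 for *Mmp11* (SE 0.28), 0.73 for *Mmp13* (SE 0.68) and 0.42 for *Timp3* (SE 0.37), each with edgeR QL adjusted p = 1.00, and for the other 5 genes it was smaller than its SE. Equal responses in Ctrl and cKO TFs are not shown by these values.

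Gesicle treatment of Ctrl TFs was compared with no treatment. In 20% O2, 0 of the 10 genes were called, against 0.0247% of all genes, with 0 at an unadjusted p under 0.05, against 3.67%, and 0 called by DESeq2. In 1% O2, 0 were called, against 0.00%, with 1 at an unadjusted p under 0.05 (*Mmp14*), against 2.0%, and 0 called by DESeq2. The 2 sets of libraries did not overlap for 0 genes in 20% O2, against 12.5% of all genes in either direction. In 1% O2 they did not overlap for 1 gene, *Mmp14*, which was higher, against 2.97% of all genes in that direction alone. *Mmp14* was at 691, 693 and 732 CPM with gesicles and 492, 579 and 681 CPM without, a log2 fold change of 0.27 (SE 0.12, edgeR QL adjusted p = 1.00).

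The 2 genes that rose in cKO TFs were not called with gesicles. *Mmp2* was at 178, 168 and 192 CPM with gesicles in 20% O2, a log2 fold change of 0.17 (SE 0.14, edgeR QL adjusted p = 1.00), and at 234, 225 and 191 CPM in 1% O2 (0.16, SE 0.14, edgeR QL adjusted p = 1.00). *Mmp13* averaged 6.57 ± 6.22 CPM with gesicles and 6.58 ± 3.98 CPM without in 20% O2, and 2.50 ± 0.549 and 1.81 ± 0.803 CPM in 1% O2 (SD, n = 3). *Mmp3* had a log2 fold change of 0.90 in 20% O2 (SE 0.61) and -0.89 in 1% O2 (SE 0.62), with edgeR QL adjusted p = 1.00 for both. *Mmp11* had a value of -0.25 in 20% O2 (SE 0.24, edgeR QL adjusted p = 1.00), and the differences with gesicles of *Mmp9*, *Mmp10*, *Timp1*, *Timp2* and *Timp3* were smaller than their SE at both levels. The interaction of gesicles and O2 called 0 genes in edgeR and DESeq2, against 0.00% of all genes, with 0 at an unadjusted p under 0.05, against 1.5%. Its log2 values larger than the SE were -1.78 for *Mmp3* (SE 0.87), 0.47 for *Mmp11* (SE 0.34) and 0.24 for *Mmp14* (SE 0.17). The comparison of cKO and of gesicle-treated TFs shares the Ctrl libraries, and the 2 differences were not tested against each other. Whole-gene *Hif1a* counts had log2 fold changes with gesicles of 0.055 in 20% O2 and -0.13 in 1% O2.

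Part of the spread within the Ctrl groups followed the replicate number. In all 4 Ctrl groups, with or without gesicles, replicate 3 had the lowest level of *Mmp3*, *Mmp10* and *Timp1*, and replicate 2 the highest level of *Timp1*. *Timp1* was at 189, 301 and 98.6 CPM in replicates 1 to 3 of Ctrl 20% O2 and at 244, 360 and 130 CPM with gesicles. *Timp3* was highest in replicate 1 and *Mmp11* highest in replicate 3 in all 4 groups. By their sex-linked counts, replicate 1 was male and replicates 2 and 3 female. The numbers with the highest and lowest *Timp1* were thus of the same sex, while *Timp3* was highest in the male number. The part of sex in this spread was not tested. In the cKO groups replicate 3 was the lowest for none of *Mmp3*, *Mmp10* and *Timp1*.

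**Figure D5:**
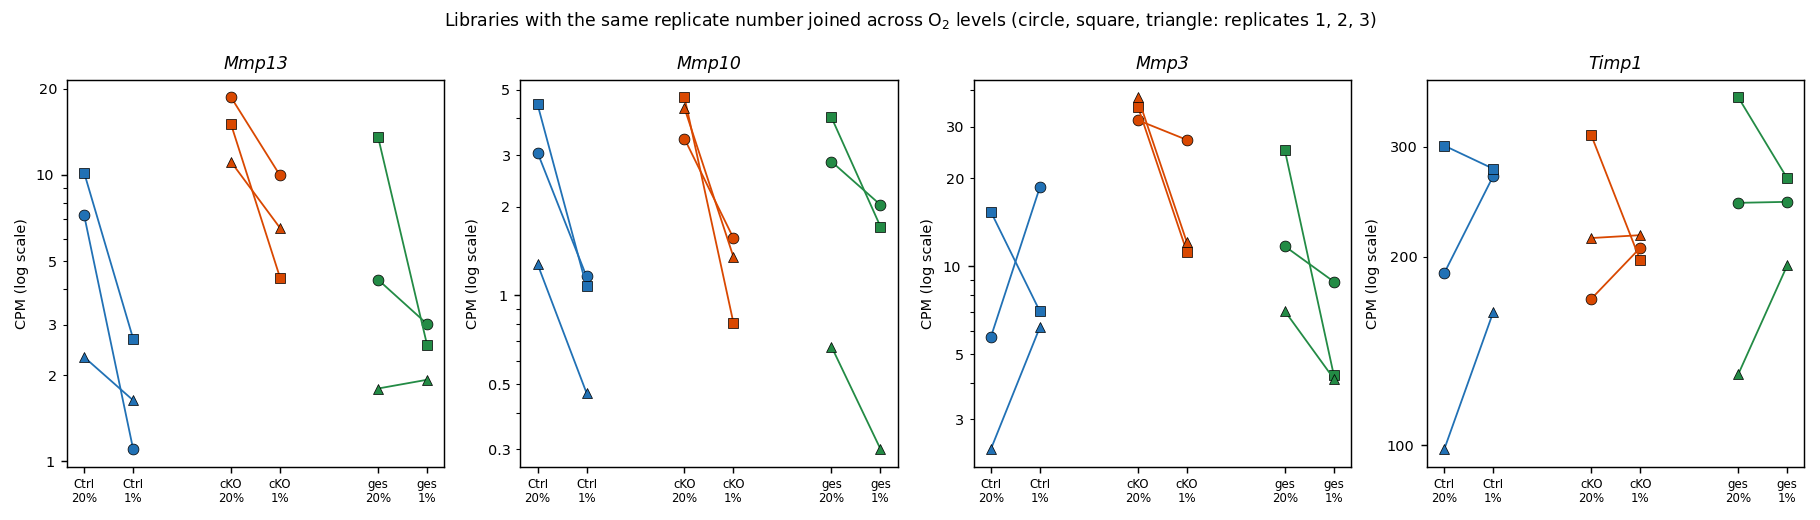
TMM-normalized CPM on a log axis, with lines joining the 20% and 1% O2 libraries of the same replicate number in Ctrl, cKO and gesicle-treated Ctrl (ges) TFs. *Mmp10* is lower in 1% O2 in 9 of 9 lines, *Mmp13* in 8, *Mmp3* in 7 and *Timp1* in 3.

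Across all 10 genes, libraries with the same number were lower in 1% O2 in 9 of 9 pairs for *Mmp10* and *Timp2*, in 8 for *Mmp13*, *Mmp14* and *Timp3*, in 7 for *Mmp3* and *Mmp9*, in 4 for *Mmp11* and in 3 for *Mmp2* and *Timp1*. The share of all genes with such counts of pairs was not worked out. Over the 18 libraries, which may share mice across arms and differ in depth, Pearson's r of log2 CPM was 0.789 between *Mmp10* and *Mmp13*, 0.713 between *Mmp3* and *Mmp13* and 0.614 between *Mmp3* and *Mmp10*, as a description. Of the 45 pairs, that of *Mmp10* and *Mmp13* was the highest and that of *Mmp11* and *Timp1* the lowest, at -0.708.

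Other genes of the family were read from a list of 17 other genes, MMPs and *Timp4*, of which 10 passed the filter in the Ctrl and cKO fit and 11 in the fit of all libraries. In this list 1 gene was called with 1% O2 in cKO TFs, against 2.10% of all genes. This was *Timp4*, which rose from 0.207 ± 0.0881 to 1.10 ± 0.435 CPM (SD, n = 3, log2 fold change 2.36, edgeR QL adjusted p = 0.0453), near the floor of 3 counts. Its mean also rose, without a call, from 0.314 to 0.865 CPM in Ctrl and from 0.251 to 0.852 CPM in gesicle-treated TFs. In gesicle-treated TFs 1 was called, against 2.41% of all genes. *Mmp19*, a protease of basement membrane proteins, rose there from 29.4 ± 4.43 to 52.1 ± 7.20 CPM (log2 fold change 0.83, edgeR QL adjusted p = 0.0240). It also rose, without a call, from 36.3 to 58.7 CPM in Ctrl (edgeR QL adjusted p = 0.0773) and from 32 to 50.4 CPM in cKO (edgeR QL adjusted p = 0.0806). In Ctrl TFs, 0 of these genes were called by edgeR, with 4 at an unadjusted p under 0.05, against 16.1% of all genes. These were *Mmp15*, lower in 1% O2, and *Mmp19*, *Mmp23* and *Timp4*, higher. *Mmp15* had log2 fold changes of -2.20 in Ctrl (edgeR QL adjusted p = 0.0541) and -1.86 in cKO (edgeR QL adjusted p = 0.0919). Between the genotypes, 0 were called in either O2 level or on average, with 0 at an unadjusted p under 0.05, against 14.3%, 16.8% and 28.5%.

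Genes that activate, anchor or clear MMPs were read from a list of 19, of which 16 were tested. In Ctrl TFs, 2 rose with 1% O2 and 1 fell, against 1.88% of all genes called. *Plat*, the tissue plasminogen activator, rose from 96.3 ± 26.5 to 332 ± 191 CPM (SD, n = 3, edgeR QL adjusted p = 0.0263). *Bsg*, the cell-surface glycoprotein basigin known as an inducer of MMPs, rose from 776 ± 44.8 to 1180 ± 27.7 CPM (edgeR QL adjusted p = 0.0393). *Pcsk5*, a proprotein convertase, fell from 5.2 ± 2.69 to 1.59 ± 0.619 CPM (edgeR QL adjusted p = 0.0416). In cKO and in gesicle-treated TFs, 0 were called with O2 by edgeR, against 2.10% and 2.41% of all genes. In each, 4 had an unadjusted p under 0.05, against 19.8% and 17.3%. *Bsg* missed the call there on the fold alone, with 1.49-fold higher levels in 1% O2 in cKO (edgeR QL adjusted p = 0.0496) and 1.45-fold in gesicle-treated TFs (edgeR QL adjusted p = 0.0339), beside 1.53-fold in Ctrl. The means of *Plat* and *Pcsk5* moved in the same direction in these arms as in Ctrl.

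On average over O2 levels, 1 gene of this list rose and 3 fell in cKO TFs, against 3.78% of all genes called and 1.10% called higher. *Plau*, the urokinase plasminogen activator, rose by a log2 fold change of 1.3 (edgeR QL adjusted p = 0.0315) at low levels, with 1.41 ± 0.466 CPM in cKO and 0.381 ± 0.145 CPM in Ctrl TFs in 20% O2. Its receptor *Plaur* fell by 0.68 on the log2 scale (edgeR QL adjusted p = 0.0405), the convertase *Furin*, which cuts proMMP14 and proMMP11, fell by 0.82 (edgeR QL adjusted p = 0.0415), and the collagen receptor *Ddr1* fell by 0.85 (edgeR QL adjusted p = 0.00889). Of 9 AP-1 subunit genes, 7 were tested and 1, *Fosl2*, fell on average, by 1.05 on the log2 scale (edgeR QL adjusted p = 0.0290). In the O2 comparisons, 0 of the 7 were called by edgeR. The unadjusted p was under 0.05 for 1 in Ctrl TFs, against 16.1% of all genes. It was so for 0 in cKO and gesicle-treated TFs, against 19.8% and 17.3%. Within either O2 level, 0 genes of these 3 lists were called between the genotypes. In the activation list 5 had an unadjusted p under 0.05 in 20% O2 and 4 in 1% O2, against 14.3% and 16.8% of all genes. In the AP-1 list 2 did at each level, *Fos*, which was higher in cKO TFs, and *Fosl2*, which was lower. Gesicles called 0 genes of the 3 lists by edgeR, with 0 at an unadjusted p under 0.05 in 20% O2 and 1 in 1% O2. Between genotypes on average, the median log2 fold change was -0.19 for the other MMPs and *Timp4*, -0.27 for the activation list and -0.22 for the AP-1 list, beside 0.024 over all genes, and with O2 in Ctrl TFs it was -0.04, -0.09 and 0.19, beside 0.00020.

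The genes whose log2 CPM followed each member most closely over the 18 libraries were found by Pearson's r, for the 9 members above 1 CPM on average. *Timp3* was followed by *Pdzrn3* (r = 0.957) and by *Syn3* (r = 0.935), the gene that surrounds it on the opposite strand. *Mmp2* was followed by *A730056A06Rik* (r = 0.898), *Igfbp3* (r = 0.891) and *Socs3* (r = 0.877), *Mmp3* by *Oip5* (r = 0.900) and *Mmp13* by *Steap3* (r = 0.875). *Mmp10* was nearest to *Ezr* (r = 0.876), *Mmp14* to *Gxylt2* (r = 0.881), *Mmp11* to *Habp4* (r = 0.887), *Timp1* to *Plxdc1* (r = 0.880) and *Timp2* to *Gm13502* (r = 0.918).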

How the data were processed

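Poly-A RNA-seq libraries were made from TFs and sequenced as paired-end reads. The authors trimmed reads with Cutadapt, mapped them to GRCm38 with STAR and assigned estimated counts to genes with RSEM v1.3.3. They deposited these expected counts as whole numbers without normalization. The strand setting was not given in the sources used here, nor was an annotation release. No 2 libraries were copies (smallest chi-square per degree of freedom 14.1 over 153 pairs).

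Genes kept by filterByExpr were tested with the quasi-likelihood F test of edgeR v4.0.16 (TMM, 1 coefficient per group), fitted to the 12 libraries of Ctrl and cKO (15850 genes) and, for gesicle comparisons, to all 18 (16174 genes), with Benjamini-Hochberg adjustment over all genes. SEs were derived from the fold change and its F statistic. Positions and exonic lengths came from GENCODE M21. R v4.3.3 and Python v3.11.15 were used, and the scripts were tested on simulated data.

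The 10 members were fixed as the genes to describe. Their log2 fold changes were printed in part, so a value left out is not thereby smaller than its SE. Of the lists, called genes were named, with a few others at an unadjusted p under 0.05. For likeness, up to the 3 genes with the highest r were named. The members and lists were chosen with earlier results of these data known. Alternatives were DESeq2 v1.42.0 (the study's tool), RLE size factors, no filter, replicate blocks, other sets of libraries in the fit, each library left out in turn and, chosen after seeing the data, sex as a covariate. Replicates are read as separate mice, as the study states 3 per condition. The spread behind every p-value, also within an O2 level, was estimated over all groups of the fit. Libraries of the same mouse at both O2 levels may enter that estimate as if separate. In the average over O2 levels a mouse may enter with a library at each level, and the main model held no term for it. The floor of 3 counts covers counting error only. The study names a paired design without its pairing factor. Libraries with the same number deviated together between O2 levels in Ctrl (r = 0.320, 0.331 and 0.581) and between treated and untreated Ctrl (r = 0.267 to 0.588), but not in every pair between O2 levels in cKO or gesicle-treated TFs or between genotypes.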

Additional observations from a re-analysis of the deposited data

How the results depend on the processing

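Of 336 log2 fold changes recomputed under the alternatives, 320 kept their direction and their side of the threshold, 16 passed it newly, 0 lost it and 0 reversed. Only values larger than their SE in the main fit were counted here, each under several alternatives on largely the same libraries. Values near 0, which reverse most easily, were left out, so the absence of reversals says little. Numbers of called members moved as follows. In Ctrl TFs, 1% against 20% O2 gave 2 with DESeq2, 2 without a filter and 1 with the replicate block within genotype, instead of 0. In cKO TFs the same settings gave 1, 1 and 1 instead of 0. For cKO against Ctrl, no filter gave 2 instead of 1 in 20% O2 and 1 instead of 0 in 1% O2, DESeq2 gave 2 in 1% O2, and both gave 4 instead of 2 on average. The genes gained were *Mmp10*, *Mmp13*, *Mmp3*, *Timp3* and *Mmp2*. With 1 library left out, the numbers ranged from 0 to 2 in Ctrl and 0 to 1 in cKO TFs for O2, from 0 to 1 in 20% O2, 0 to 1 in 1% O2 and 1 to 3 on average for genotype. Without Ctrl 20% O2 replicate 3, 2 members were called with O2 in Ctrl TFs and 1 in cKO TFs. Without Ctrl 20% O2 replicate 2 or Ctrl 1% O2 replicate 1, *Mmp3* was called on average, and without cKO 20% O2 replicate 1, *Timp3*. Without cKO 20% O2 replicate 2, *Mmp2* was called in 1% O2. The causes were not tested. The replicate block by number changed no call of the 10 genes. DESeq2 and edgeR without a filter were both given 28539 genes (29738 with gesicles), part of which DESeq2's own filter can leave without an adjusted p. Over all genes, DESeq2, edgeR without a filter and edgeR with the filter called 692, 422 and 298 with O2 in Ctrl, 888, 511 and 333 in cKO, 731, 396 and 390 in gesicle-treated TFs, 434, 281 and 55 between genotypes in 20% O2, 285, 111 and 6 in 1% O2, 1274, 1190 and 599 on average, and 46, 23 and 4 with gesicles in 20% O2. With 1 library left out, the filtered edgeR counts in the same order ranged from 116 to 447, 98 to 1373, 148 to 504, 1 to 154, 0 to 161, 137 to 1531 and 0 to 22. The smallest library, with 6857558 counts, limits *Mmp9* and *Mmp10* in cKO 1% O2.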
